A study of Arabidopsis thaliana with 11 samples.

Results

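Cytochrome P450 genes encode haem enzymes that insert an oxygen atom into small molecules, and Arabidopsis uses them to build hormones, pigments, lignin, cuticle and defence compounds. Most sit in the membrane of the endoplasmic reticulum and take electrons from a P450 reductase. The CYP71B subfamily is a large plant group, many of whose genes lie in tandem rows on the chromosomes. Its best known member acts in the synthesis of camalexin, an indole defence compound, while most others have no settled substrate. The genes described here are those whose symbol in the platform annotation is a P450 family name, and 21 of the 11598 plant probe sets with a gene name met that rule, each with a single probe set. CYP71B supplied 18 of them and the other 3 were CYP51G2, CYP78A9 and CYP84A4. P450 genes that the annotation lists under another kind of name, or not at all, were not read.

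Transcript levels were measured in shoots of 14-day-old Arabidopsis thaliana seedlings with 1 GeneChip array per pool of about 24 seedlings. The tested plants carried 35S::CBF4 (lines 10 and 19) or 35S::AtNF-YB1 (homozygous lines 3 and 6), with 2 arrays per line, and were set against 3 arrays of wild type Col-0. CBF4 is a factor of the CBF/DREB1 group that binds cold- and drought-responsive promoters, AtNF-YB1 is a subunit of a CCAAT-binding complex, and the 35S promoter drives each of them throughout the plant. All plants grew on vertical plates under 24 h of light per day, the 2 lines of a construct are independent, and no label says whether the CBF4 lines are homozygous.

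The arrays differed in brightness, with deposited medians of 9.23 to 22.7 intensity units, and were quantile normalized, so that levels below are log2 of normalized intensity with a floor at 0.93. The 6 measured shoot markers of photosynthesis were above background on all arrays, with summed levels of 10360 to 10770 units in CBF4, 10380 to 10880 in AtNF-YB1 and 9946 to 10620 in wild type shoots. Of the 5 measured root markers only PYK10, the major root β-glucosidase, was above background on every array, and the summed root levels overlapped between the groups at 205 to 429 units in CBF4, 290 to 432 in AtNF-YB1 and 214 to 495 in wild type shoots, a sum made up mostly of PYK10. PRX57, a peroxidase gene of that list, was at the floor on all 8 transgenic arrays, against 2.87, 2.37 and 0.98 log2 on the wild type arrays (-1.15 ± 0.41 for each construct, adjusted p = 0.683 for CBF4 and 1 for AtNF-YB1). PRX27, another peroxidase gene, was at the floor on the 4 CBF4 arrays, against 1.66, 1.79 and 2.56 in wild type (-1.08 ± 0.59, adjusted p = 0.966). Both were dim: PRX57 was above background on wild type replicate 1 only, and PRX27 on the first AtNF-YB1 line 6 array only. The root markers PRX72 (0.02 ± 0.83 with CBF4, -0.07 ± 0.83 with AtNF-YB1) and EXPA7 (-0.07 ± 0.56 and 0.52 ± 0.56) did not share that direction. The part of the root markers in the P450 differences was not tested. Among the CBF target genes that check the CBF4 lines, 4 of 5 were higher than in wild type by the test, where 0.181% of plant probe sets were. The other, COR47, was at 1.37 ± 0.19 (limma adjusted p = 0.0815). The array labelled wild type replicate 3 carried vector signal (52.3 units on the NOS probe set, against 0.498 and -0.437 on the other two). On the E9 probe set it read 1164 units, above all other arrays, against 137 and 88.3 on the other wild type arrays and 504 to 591 on the CBF4 arrays. Values without wild type replicate 3 are given for the leading genes of CBF4 against wild type, for signs that turned and for some other differences that moved. Shoots are bulk tissue, in which fewer cells of a type and less RNA per cell cannot be told apart.

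A probe set was taken as above background on an array where its deposited intensity exceeded the 95th percentile of the spike controls there. By that measure 7 P450 genes were above background on all 11 arrays, namely CYP71B5, CYP71B6, CYP71B24, CYP71B26, CYP71B28, CYP71B34 and CYP71B35. A further 5, CYP51G2, CYP71B22, CYP71B23, CYP71B29 and CYP71B36, were above it on 6 to 10 arrays. CYP71B37 passed on 1 array and CYP78A9 on 2. The other 7 genes (CYP71B19, CYP71B21, CYP71B25, CYP71B27, CYP71B31, CYP71B38 and CYP84A4) were not above background on any array, and CYP71B21 and CYP71B31 lay at the floor throughout. The mean level of 8 of the 21 genes reached the median of all probe sets, and each array showed 8 to 14 of them above background. Intensities of different probe sets are not on a common scale, so the genes are not ranked by level. CYP71B30P, a pseudogene of the subfamily whose symbol falls outside the rule, was also at the floor on all arrays.

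**Figure D1:**
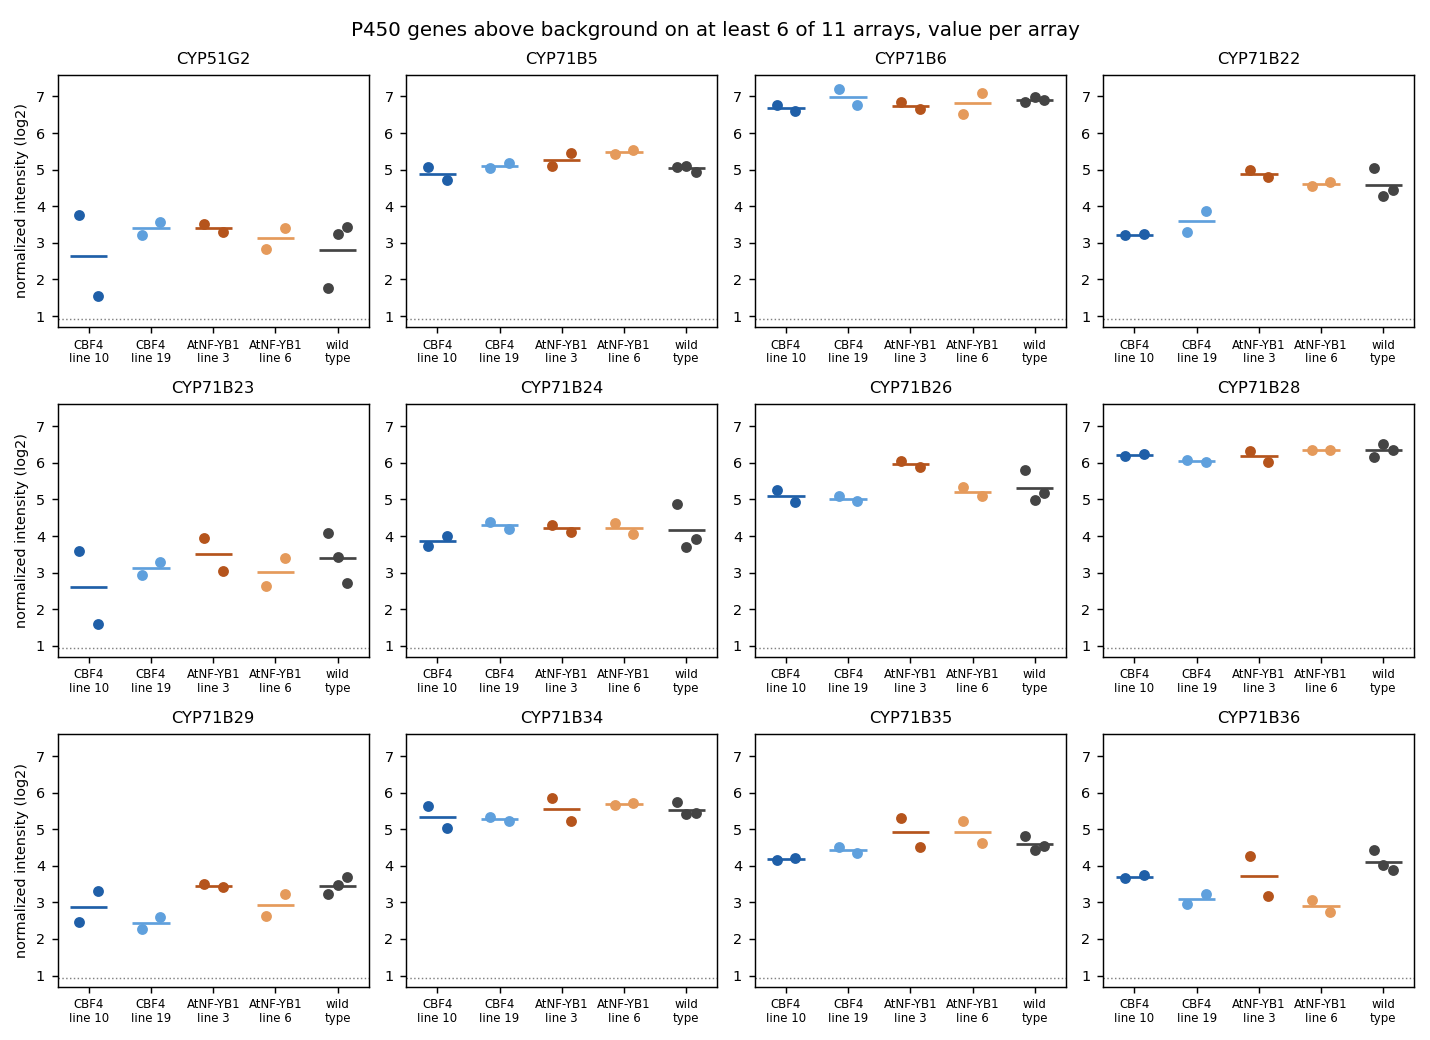
Normalized log2 intensity (vertical axis) of the 12 P450 genes above background on at least 6 arrays, for CBF4 lines 10 and 19, AtNF-YB1 lines 3 and 6 and wild type (horizontal axis). Points are arrays, bars are the means of each line or of wild type, and the dotted line is the floor at 0.93 log2. The 4 CBF4 arrays of CYP71B22 lie between 3.21 and 3.88, under all other arrays of that gene.

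The comparison of CBF4 with wild type shoots asked which transcripts differ when CBF4 is overexpressed. None of the 21 P450 genes passed the test across all probe sets, where 0.232% of plant probe sets did. The gene nearest to passing was CYP71B22, a CYP71B enzyme without a settled substrate. Most P450 differences were small and negative: 17 of 21 were below 0, where 45.1% of all plant probe sets were, with a median of -0.23 log2 against 0 over all probe sets. Leaving out the wild type array with vector signal, 17 were below 0 and their median was -0.31. With the floor raised to the 30th percentile, 14 were below 0, with a median of -0.07. The sign of 7 of the 21 turned in at least 1 alternative.

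CYP71B22 gave 3.21 and 3.24 log2 in CBF4 line 10 and 3.31 and 3.88 in line 19, against 5.04, 4.29 and 4.45 on the wild type arrays. All 4 CBF4 arrays were under all 3 wild type arrays, and both lines lay on the same side. Its difference was -1.18 ± 0.21 log2 (SE, 95% interval -1.69 to -0.68), or 2.27-fold, with limma adjusted p = 0.176, and its p-value ranked 105 among 19374 probe sets. By line the differences were -1.37 ± 0.25 in line 10 (adjusted p = 0.26) and -1.003 ± 0.25 in line 19 (adjusted p = 0.461). The signal in CBF4 shoots was dim, at 9.5 to 11.3 deposited units where the background limit was 6.93 to 10.88, and it was under that limit on 1 of the 4 arrays. Leaving out the wild type array with vector signal, the difference was -1.25 (adjusted p = 0.244). With dim probe sets left out before the fit the same difference had an adjusted p of 0.0286. That filter used the mean over all 11 arrays. CYP71B22 averaged 4.59 in wild type and 4.75 in AtNF-YB1 shoots, but 3.41 in CBF4 shoots. The filter thus depends on the groups where the gene is high, and its adjusted p is not taken as support. With the lines of a construct pooled the difference had an adjusted p of 0.117, and 0.0204 with line as a random block added. The correlation within lines that this block used was not examined. The lower value is therefore not taken as a pass after allowing for line variation.

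CYP71B36, above background on 8 of 11 arrays, also had groups that did not overlap. It gave 3.66 and 3.75 in CBF4 line 10 and 2.96 and 3.24 in line 19, against 4.42, 4.03 and 3.88 in wild type. Its difference was -0.71 ± 0.28 (limma adjusted p = 0.759), and -0.82 without the wild type array with vector signal (adjusted p = 0.702). The other gene without overlap was CYP71B19, at -0.74 ± 0.17 (adjusted p = 0.351), which was under the background limit on every array of both groups, so no fold is given. With the floor at the 30th percentile that difference was 0, and without the wild type array with vector signal it was -0.71. These 3 of 21 genes were the ones with no overlap between the CBF4 and wild type arrays, all 3 in the negative direction, where 5.23% of plant probe sets had none in either direction and 2.93% in that direction.

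CYP71B29 was above background on all 3 wild type arrays and on none of the CBF4 arrays. It read 2.45 and 3.31 in CBF4 line 10 and 2.26 and 2.60 in line 19, against 3.23, 3.47 and 3.68 in wild type. The groups overlapped through the second array of line 10. The fitted difference was -0.80 ± 0.25 (adjusted p = 0.575), or -0.69 without the wild type array with vector signal, and no fold is given. The bound for a group under background was 3.21 log2, the mean over the CBF4 arrays of the higher of the gene's own value and the lowest signal above background on that array, against a wild type mean of 3.46. An unadjusted p below 0.05 was reached by 4 of 21 genes (CYP71B22, CYP71B19, CYP71B29 and CYP71B36), where 6.14% of plant probe sets did. All 4 were negative, where 3.32% of plant probe sets were negative at that p.

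The genes that were above background on all 11 arrays differed little, from -0.29 to -0.04 log2. All 7 of them were negative, where 45.1% of all plant probe sets were. For CYP71B5, CYP71B6 and CYP71B24 the lines differed in sign, at -0.14, -0.22 and -0.28 in line 10 and 0.07, 0.08 and 0.13 in line 19. CYP71B28 gave -0.21 ± 0.10 (adjusted p = 0.869, 95% interval -0.44 to 0.02) and CYP71B35 -0.29 ± 0.23. CYP71B6, which turns indole-3-acetonitrile into simpler indole compounds, was at -0.07 ± 0.17 with an interval of -0.47 to 0.33. CYP71B5 was at -0.04 ± 0.12, and CYP71B26, CYP71B34 and CYP71B24 were at -0.27 ± 0.21, -0.23 ± 0.20 and -0.08 ± 0.28. For these 7 genes the intervals held differences of at most 0.83 log2 in size. For the dimmer genes they were wider, as for CYP71B23 (-0.54 ± 0.57, and -0.88 without the wild type array that carried vector signal) and CYP71B27 (-0.48 ± 0.47).

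The 3 genes of other families did not pass either. CYP78A9 belongs to a family whose genes act in the growth of seeds and fruits. It gave 1.18 to 2.30 on the 4 CBF4 arrays, against 3.15, 2.26 and 2.33 in wild type. It was above background on 1 wild type array and no CBF4 array, and its difference of -1.09 ± 0.67 had an interval of -2.69 to 0.51. With the floor at the 30th percentile it was -0.28. CYP51G2, a relative of the sterol demethylase gene CYP51G1, was at 0.21 ± 0.62, and 0.52 without the wild type array with vector signal. CYP84A4, an enzyme that branches from phenylpropanoid metabolism towards arabidopyrones, was at -0.20 ± 0.61, or -0.50 without that wild type array, and under background on every array.

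The comparison of AtNF-YB1 with wild type shoots asked the same of AtNF-YB1. None of the 21 genes passed (limma adjusted p = 1 for all of them), where 0.0155% of plant probe sets did, and their differences lay on both sides of 0. Of the 21, 11 were above 0, where 46.2% of plant probe sets were, and 8 below, where 44.6% were, with a median of 0.05 log2. On values as deposited without scaling the split was 6 above and 13 below with a median of -0.12, while the median of all probe sets moved to -0.17. Without the wild type array with vector signal it was 10 above and 9 below with a median of 0, and 12 of the 21 signs turned in at least 1 alternative. Groups did not overlap for 0 of 21 genes, where 3.79% of plant probe sets had none. An unadjusted p below 0.05 was reached by 2 of 21, CYP71B36 and CYP71B5, where 4.02% of plant probe sets did.

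CYP71B36 gave 4.27 and 3.16 log2 in AtNF-YB1 line 3 and 3.08 and 2.74 in line 6, against 4.42, 4.03 and 3.88 in wild type. The first array of line 3 lay within the wild type range and the other three under it. The difference was -0.79 ± 0.28 (95% interval -1.46 to -0.13), and -0.90 without the wild type array that carried vector signal. Without the second line 3 array it was -0.52. By line it was -0.39 ± 0.33 in line 3 and -1.198 ± 0.33 in line 6. The same wild type arrays also served for its CBF4 difference of -0.71.

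CYP71B5 gave 5.10 and 5.46 in line 3 and 5.42 and 5.53 in line 6, against 5.07, 5.10 and 4.95 in wild type. The first array of line 3 overlapped the highest wild type array. The difference was 0.34 ± 0.12, with an interval of 0.05 to 0.62. CYP71B22 stood at 4.98, 4.81, 4.55 and 4.67 on the AtNF-YB1 arrays, inside the wild type range. Its difference was 0.16 ± 0.21, and 0.08 without the wild type array with vector signal. CYP78A9 was at -0.81 ± 0.67, and 0.06 with the floor at the 30th percentile. CYP51G2 was at 0.45 ± 0.62 and CYP84A4 at 0.20 ± 0.61. Without the wild type array with vector signal these were 0.76 and -0.10. The remaining CYP71B genes ran from -0.46 for CYP71B27 to 0.39 for CYP71B37. Without that array CYP71B37 was 0.09, CYP71B23 was -0.50 (-0.15 with it), CYP71B25 was 0.10 (-0.26 with it) and CYP71B24 was -0.08 (0.05 with it).

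**Figure D2:**
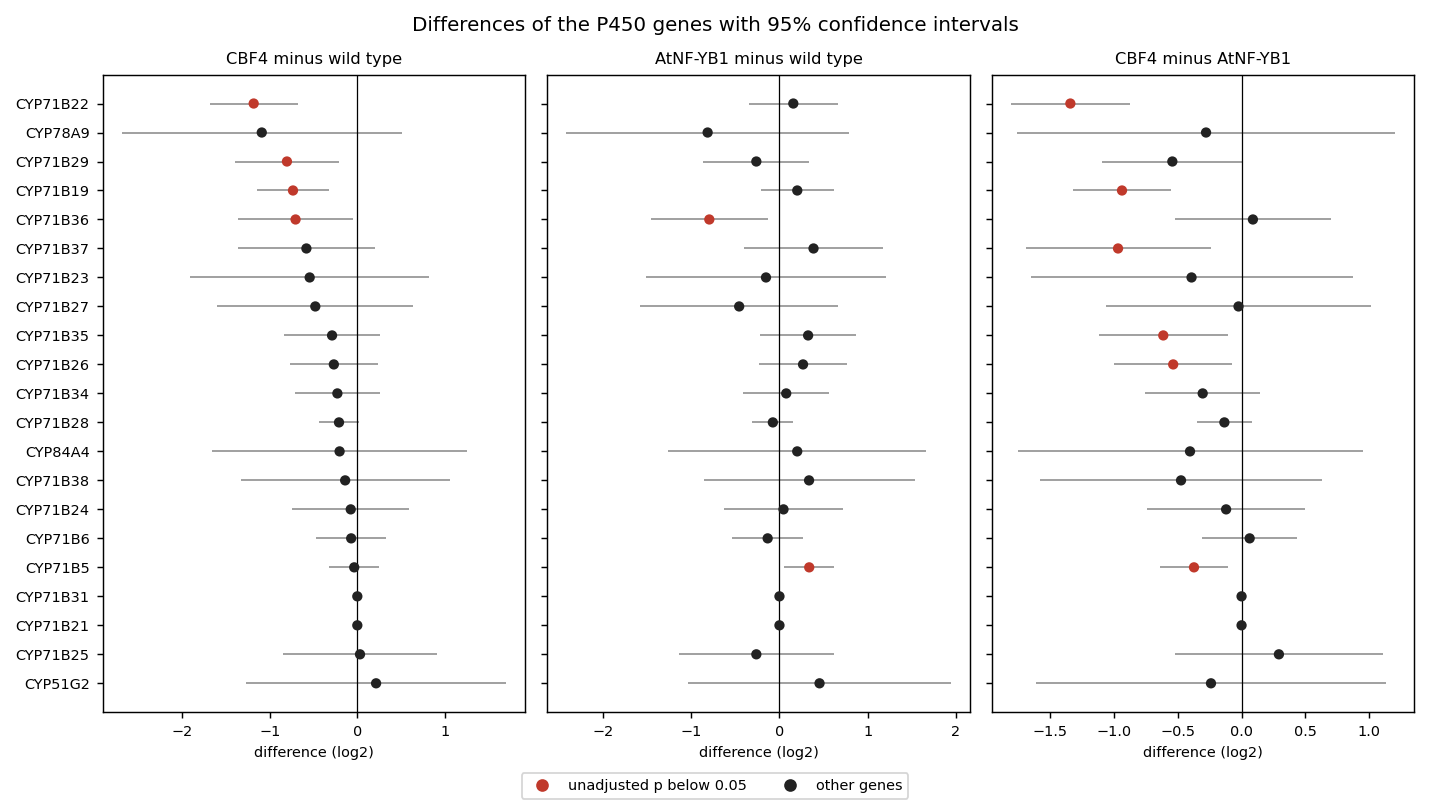
Difference in log2 level (horizontal axis) of all 21 P450 genes (vertical axis) for CBF4 minus wild type, AtNF-YB1 minus wild type and CBF4 minus AtNF-YB1. Bars are 95% confidence intervals from limma, red points have an unadjusted p below 0.05, and the horizontal scale differs between panels. CYP71B22 is at -1.18, 0.16 and -1.34 log2, and CYP71B21 and CYP71B31 are at 0 because all their values lie at the floor.

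The direct comparison of CBF4 with AtNF-YB1 shoots leaves the wild type level out of the difference, although the wild type arrays still add to the common estimate of the spread. None of the 21 P450 genes passed, where 0.31% of plant probe sets did, and 16 of 21 differences were negative, against 46.6% of all plant probe sets. Their median was -0.30 log2, but -0.15 without the first AtNF-YB1 line 3 array and -0.12 with the floor at the 30th percentile. The sign of 7 of the 21 turned in at least 1 alternative. CYP71B22 came nearest again, with 3.21, 3.24, 3.31 and 3.88 log2 on the CBF4 arrays, against 4.98, 4.81, 4.55 and 4.67 on the AtNF-YB1 arrays. All 4 CBF4 arrays were under all 4 AtNF-YB1 arrays. The difference was -1.34 ± 0.19 (95% interval -1.81 to -0.88), 2.53-fold, with limma adjusted p = 0.0728, and its p-value ranked 79. The adjusted p of CYP71B22 was below 0.05 in 4 of 22 alternatives. It was 0.00649 with dim probe sets left out, 0.0372 with the lines pooled and 0.0121 with line as a random block added. Without wild type replicate 1 it was 0.0351. Without the wild type array with vector signal it was 0.115, for a difference of -1.33. The dim filter used the mean over all arrays, which the AtNF-YB1 arrays raised, so its value of 0.00649 is not taken as support.

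CYP71B35 gave 4.17 to 4.50 on the CBF4 arrays, with a mean of 4.31 ± 0.15 (SD, n = 4), against 5.32, 4.51, 5.22 and 4.64 on the AtNF-YB1 arrays. The highest CBF4 array and the lowest AtNF-YB1 array were almost level. The difference was -0.61 ± 0.21 (adjusted p = 0.497). CYP71B19, again under background throughout, was at -0.94 ± 0.16 (adjusted p = 0.117) with no overlap, and -0.10 with the floor at the 30th percentile. CYP71B22, CYP71B35 and CYP71B19 were the 3 of 21 genes without overlap, all in the negative direction, where 4.47% of plant probe sets had none in either direction and 2.48% in that direction.

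CYP71B26 was at -0.54 ± 0.19, CYP71B5 at -0.37 ± 0.11 and CYP71B37 at -0.97 ± 0.30, with adjusted p = 0.529, 0.399 and 0.436. With CYP71B22, CYP71B19 and CYP71B35 they made up 6 of 21 genes at an unadjusted p below 0.05, where 7.97% of plant probe sets reached it. All 6 were negative, where 4.46% of plant probe sets were negative at that p. CYP71B37 was at the floor on all CBF4 arrays and above background on 1 AtNF-YB1 array only, so that no fold is given. With the floor at the 30th percentile its difference was -0.16. CYP71B36, at -0.71 and -0.79 against the shared wild type arrays, was 0.09 ± 0.26 between them (interval -0.52 to 0.70). CYP71B6, at 0.06 ± 0.16, and CYP71B25, at 0.29 ± 0.34, were the other positive values.

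Of the 18 CYP71B genes, 11 lie in a row on chromosome 3 between AT3G26150 and AT3G26330 in the RefSeq table of assembly TAIR10.1, where that table lists 18 CYP71B loci. CYP71B22 sits inside this row, between CYP71B21, at the floor on every array, and CYP71B23. CYP71B23 gave 3.59 and 1.59 log2 in CBF4 line 10 and 2.94 and 3.30 in line 19, against 4.07, 3.43 and 2.71 in wild type, so its groups overlapped. In CBF4 against wild type, 9 of the 11 genes of the row were negative with a median of -0.29, and 8 of the 10 genes elsewhere were negative with a median of -0.17. In AtNF-YB1 against wild type, 3 of the 11 were negative with a median of 0.08. At the far end of the row CYP71B34, CYP71B35, CYP71B36 and CYP71B37 follow each other, and their AtNF-YB1 differences of 0.08, 0.32, -0.79 and 0.39 did not share a sign. The probe sets of CYP71B27, CYP71B34 and CYP71B37 are of the type that can bind transcripts of several genes, and cross-hybridization within the row was not tested.

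**Figure D3:**
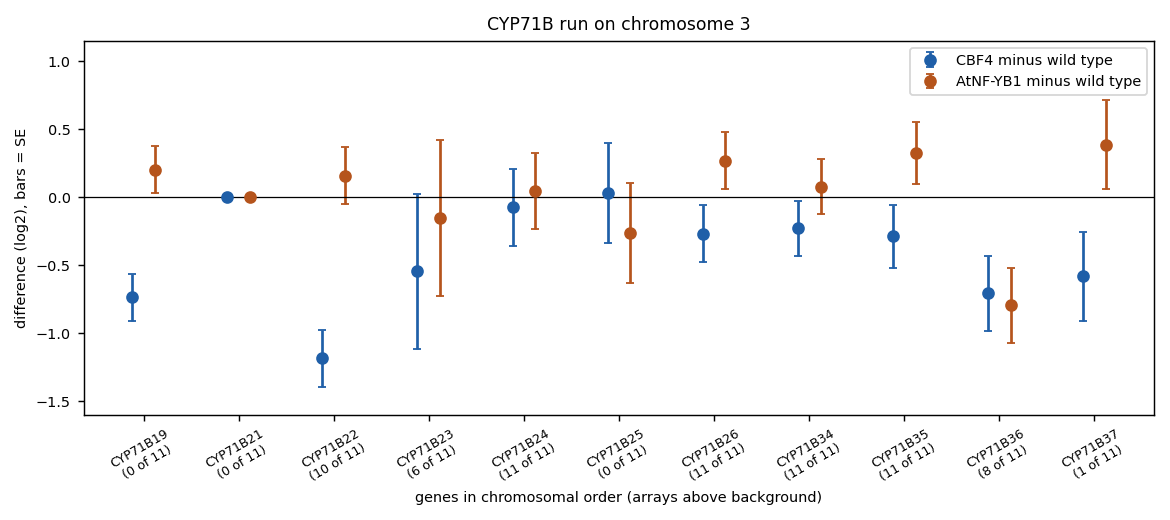
Differences in log2 level (vertical axis, bars are SE) of the 11 genes of the chromosome 3 row in chromosomal order (horizontal axis), with the number of arrays above background under each name. CBF4 minus wild type is drawn left of AtNF-YB1 minus wild type for each gene. CYP71B22 shows the largest separation, at -1.18 against 0.16.

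Outside this row, CYP71B27, CYP71B28 and CYP71B29 lie together on chromosome 1 among 5 CYP71B loci, and CYP71B5 and CYP71B31 on chromosome 3 among 4. CYP71B28 and CYP71B29 are listed next to each other. CYP71B28 was steady, between 6.03 and 6.51 on the 11 arrays, the narrowest span of any P450 gene that was off the floor. CYP71B29 ranged over 1.42 log2, from 2.26 to 3.68. CYP71B5 was above background on every array while CYP71B31 was at the floor on all of them.

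The independent lines of a construct were compared to see how far they differ from each other. None of the 21 genes passed between CBF4 lines 10 and 19 or between AtNF-YB1 lines 3 and 6 (limma adjusted p = 1 for every gene), where 0.0155% and 0.0258% of plant probe sets did. Between the CBF4 lines 0 of 21 genes reached an unadjusted p below 0.05, where 3.42% of plant probe sets did, and the smallest p-values belonged to CYP71B36 at 0.60 ± 0.36, CYP71B19 at -0.34 ± 0.23 and CYP71B38 at -0.97 ± 0.65 log2. CYP71B38 was -0.30 without the second line 19 array and -1.64 without the first. With the floor at the 30th percentile it was -0.27, and CYP71B19 was 0. CYP71B22 read 3.21 and 3.24 in line 10 and 3.31 and 3.88 in line 19.

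Between the AtNF-YB1 lines 2 of 21 genes did, CYP71B37 at 1.37 ± 0.43 and CYP71B26 at 0.76 ± 0.27, where 4.18% of plant probe sets did. CYP71B26 gave 6.05 and 5.90 in line 3, against 5.33 and 5.08 in line 6, and both arrays of line 3 were above every other array of that gene. CYP71B37 gave 2.96 and 2.20 in line 3, against 0.93 and 1.49 in line 6, where it was near the floor, and its difference was 0.32 with the floor at the 30th percentile. CYP71B19 came next at 0.53 ± 0.23, or 0.20 with that floor.

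**Figure D4:**
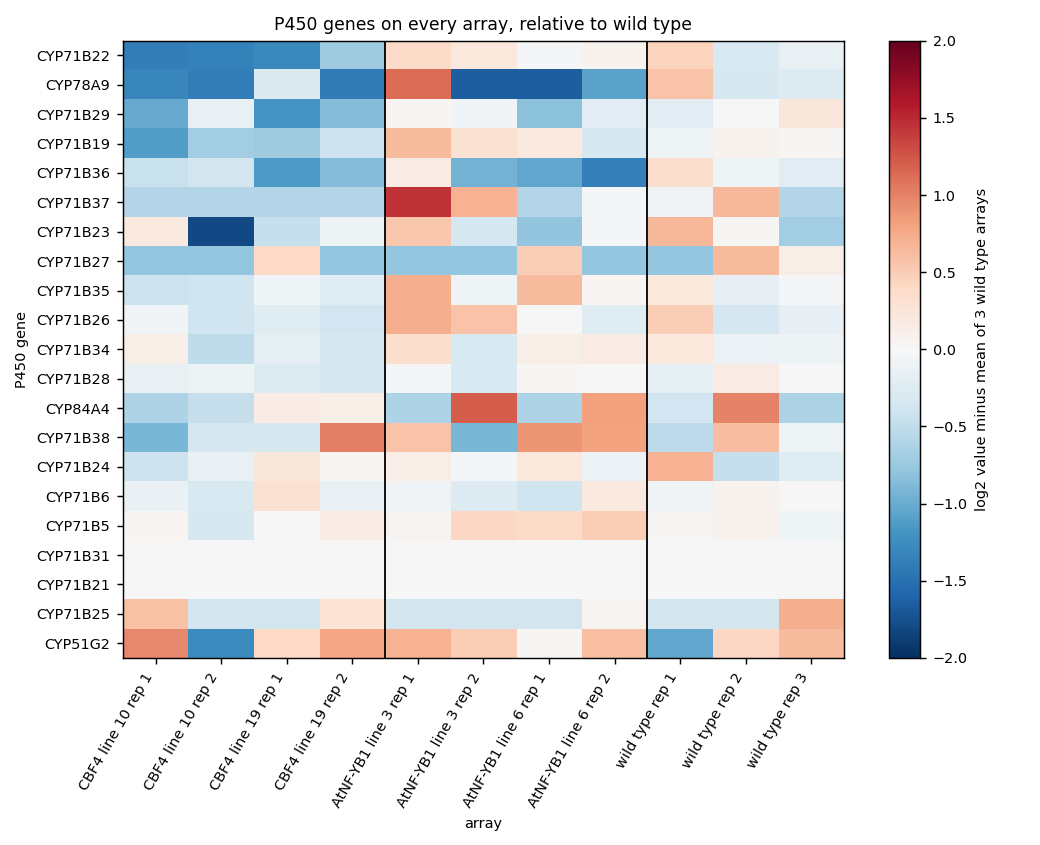
Log2 level of each P450 gene (rows, ordered by the CBF4 difference) on each array (columns) minus the mean of the 3 wild type arrays, on a colour scale from -2 to 2. Vertical lines part CBF4, AtNF-YB1 and wild type arrays. CYP71B22 is blue on the 4 CBF4 arrays, while CYP71B26 is red on both arrays of AtNF-YB1 line 3.

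Genes that work beside P450 enzymes were read from 11 lists of 128 loci, covering electron donors, glucosinolate, phenylpropanoid, hormone, carotenoid, cuticle and sterol pathways and P450 genes with trivial names. The platform names 8 of these loci, in 3 of the lists, and 0 of the 8 passed in any of the 3 comparisons (1 of 8 had an unadjusted p below 0.05 in each, where 6.14% of plant probe sets did with CBF4 and 4.02% with AtNF-YB1 against wild type, and 7.97% between the constructs). In the glucosinolate list, where 5 of 27 loci were measured, the glucosyltransferase gene UGT74B1 was -0.44 ± 0.10 log2 in CBF4 against AtNF-YB1 shoots (adjusted p = 0.234), and -0.22 ± 0.11 and 0.22 ± 0.11 in CBF4 and AtNF-YB1 against wild type. GSTU20, a glutathione transferase, was -0.10 ± 0.05 in CBF4 against AtNF-YB1. In the phenylpropanoid list, 2 of 18 were measured: the anthocyanin gene DFR was -0.52 ± 0.20 in CBF4 and -0.79 ± 0.20 in AtNF-YB1 shoots against the same wild type arrays (adjusted p = 0.766 and 0.861), and HCT, an acyltransferase of lignin synthesis, was 0.17 ± 0.09 and 0.18 ± 0.09. The only electron donor measured, ATR3, was -0.03 ± 0.29 and 0.01 ± 0.29.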

How the data were processed

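The authors deposited linear intensities, 1 per probe set and array, for 11 arrays of a custom Affymetrix design, and 13.4% of the plant values are below 0. Per the labels' protocols, RNA was amplified with MessageAmp and labelled with biotin. How background was corrected, probes summarized and arrays scaled is not given in the sources used here. Sample titles gave groups and lines, and the series text adds a further number, 23, to CBF4 line 19. The replicates are called biological, no separate growth batches are named, and p-values then reflect only how these pools vary.

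Of 19658 probe sets, 122 Affymetrix controls and 162 spike controls were left out. The other 19374 (19371 plant and 3 vector probe sets) were quantile normalized, raised to the 20th percentile of all values (1.90 units, 0.93 log2) and put on the log2 scale. A difference near the floor can understate the change. limma 3.58.1 in R 4.3.3 fitted 5 line groups (6 residual degrees of freedom, two-sided). A construct is the mean of its 2 lines. Adjusted p-values are Benjamini-Hochberg over all 19374 probe sets with a threshold of 0.05, errors are standard errors, and called shares are over plant probe sets. Precision is limited by the few arrays. Figures used Python 3.11.15 and matplotlib 3.10.9.

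Symbols were those of the platform annotation, matched by gene ID to RefSeq (21 of 21 P450 genes). Chromosomal order follows that RefSeq table, and no coordinates are given. Genes within 10 loci of each other were joined in a row. Alternatives changed the scaling, floor, dim filter, variance model, array weights, line model and replicate block, took every probe set of a gene, and left out each array. The rule for naming genes took, in each construct comparison, those that passed and up to 8 per direction whose higher group mean reached the median of all probe sets, that were alike in both lines and at an unadjusted p below 0.1, then 3 per line comparison and up to 3 per family group or list with the smallest p. Other members are given as values only where named, as are list genes outside the 2 with the smallest p. The members, lists and rules were chosen with earlier results of these data known.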

Additional observations from a re-analysis of the deposited data

Results flagged for a closer look

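Of 42 sets of 4 arrays (21 genes in 2 constructs), 6 held an array far from the other 3 by Dixon's gap ratio at 95%. Chance picks out about 1 set in 20 where values are not tied, a rate that does not hold here: in 3 of the 6 the other arrays were tied at the floor, and 5 sets with all arrays at the floor could not be picked. In CBF4 shoots CYP71B22 read 3.88 log2 on the second line 19 array, with the others at 3.21 to 3.31. CYP78A9 read 2.30 on the first line 19 array, with the others at 1.18 to 1.28. CYP71B27 read 2.09 on that same array, with the other 3 at the floor. In AtNF-YB1 shoots CYP71B28 read 6.04 on the second line 3 array, with the others at 6.32 to 6.36. CYP71B25 read 1.34 on the second line 6 array and CYP71B27 read 2.19 on the first, with the other 3 at the floor for each gene. Without the second CBF4 line 19 array the CYP71B22 difference from wild type was -1.33 log2 (limma adjusted p = 0.102).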

How the results depend on the processing

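Each count of P450 genes passing was recomputed under 22 alternatives (20 between lines). Among them, taking every probe set of a gene repeats the main fit, because each gene has a single probe set. That alternative could not change a count. The counts for AtNF-YB1 against wild type and for both line comparisons were 0 in all of them. For CBF4 against wild type the count was 1 with dim probe sets left out and 1 with lines pooled and line as a random block, and 0 in the other 20. For CBF4 against AtNF-YB1 it was 1 with dim probe sets left out, 1 with lines pooled, 1 with line as a random block and 1 without wild type replicate 1, and 0 in the other 18, so that leaving out single arrays gave 0 to 1. The gene was CYP71B22 each time. Leaving out dim probe sets tests fewer probe sets, among them 8 P450 genes, and the pooled fits estimate fewer groups. The dim filter uses the mean over all arrays, so it is not independent of the CYP71B22 difference and its counts are not taken as support. Adding line as a random block lowered the adjusted p of CYP71B22 further, and the correlation within lines that it used was not examined. The CYP71B22 difference ranged from -1.34 to -0.96 log2 against wild type, with adjusted p of 0.0204 to 1, and from -1.48 to -1.21 against AtNF-YB1, with adjusted p of 0.00649 to 1. CYP51G2 in AtNF-YB1 against wild type was -0.068 without wild type replicate 1 and 0.76 without replicate 3. CYP84A4 in CBF4 against AtNF-YB1 was 0.052 without the second line 3 array and -0.86 without the first; the cause was not tested. Over all 21 genes, 7 in CBF4 against wild type, 12 in AtNF-YB1 against wild type and 7 in CBF4 against AtNF-YB1 took the opposite sign in at least 1 alternative. The number of CBF4 differences from wild type below 0 was 16 to 18 when single arrays were left out. Without scaling, the median of all probe sets moved by -0.10 in CBF4 and -0.17 in AtNF-YB1 against wild type, and 18 and 13 P450 genes were below 0.

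With the replicate number as a block, 0 genes passed and CYP71B22 was -1.26 (adjusted p = 0.405) against wild type and -1.34 (adjusted p = 0.229) against AtNF-YB1. Deviations of same-numbered arrays correlated at -0.47 to 0.41, with 4 of 14 separate values over 0.1, so the numbers were not taken to pair the arrays. The floor at the 10th percentile (-1.14 units, which has no logarithm) and the promoter motif shares were not run. Dim signal limits the 7 genes that were above background on no array.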
